A study of Mus musculus with 6 samples.

Results

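Interferon-stimulated genes are the genes that cells switch on when an interferon reaches them. The group described here was named by gene symbol and held 39 genes, of which 37 had a row in all 3 deposited count tables, out of 20672 genes listed in any of them. Mx1 and Mx2 matched no row and are not analysed here. The members were chosen by their measured levels in these same libraries, which had been seen to differ within and between tissues, so their levels are a description, no p-value is printed for any of them, and counts of members past a threshold are read only against the share of all genes past it. All 37 members passed the filter on low counts and were among the 15856 genes of the model fit.

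The study measured messenger RNA of female mouse tissues by bulk RNA sequencing in 6 libraries, and its title names letrozole, an aromatase inhibitor that lowers oestrogen synthesis, and the fat pad below the kneecap. There were 2 libraries from infrapatellar fat pad, 2 from rectus femoris (a thigh muscle) and 2 from Achilles tendon. The titles of the fat pad libraries carry the word Letrozol, and the titles of the muscle and tendon libraries name no agent. Treated and control libraries are not told apart by any label of these tissues. The labels give no strain, age, dose or duration, all 6 libraries share the same batch label, and titles of the fat pad and tendon libraries end in "combined". Library titles also hold codes that are shared within a tissue and differ between tissues, without a stated meaning. What these codes mark cannot be told apart from tissue in any comparison between tissues. The tissue label names the fat pad for all 6, so the tissue was taken from the treatment label, which names the 3 tissues. The labels do not say whether separate animals gave them, and p-values below therefore measure only the spread between the 6 libraries, which may be technical. Because the labels do not say how library 1 and library 2 of a tissue differ, each library is shown on its own.

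Adipocyte markers summed to 78649 and 83212 CPM (counts scaled to the library total) in the fat pad libraries and to at most 5427 CPM in the other 4. Fast muscle markers summed to 183112 and 176229 CPM in rectus femoris, and to 26404 and 67301 CPM in the tendon libraries, which also held the highest tenocyte marker sums. Library totals ran from 56216295 to 106319037 counts. The deposited tables disagree in muscle and tendon. For genes whose higher library reached 200 counts, the log2 ratio of library 2 over library 1 in the authors' TPM (abundances scaled to transcript length and library) had a Pearson r of 0.92 with the ratio of the counts in fat pad (12469 genes), but of -0.21 in rectus femoris (10776 genes) and -0.24 in tendon (12261 genes). Genes are not independent replicates, and r is a description. Within-tissue results for muscle and tendon therefore hold for the count tables. TPM results are given beside them for the members only, not for markers or other pathway genes.

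Type I interferons (interferon alpha and beta) bind the receptor IFNAR1 and IFNAR2, and the kinases JAK1 and TYK2 then phosphorylate STAT proteins, STAT2 among them. STAT2 and IRF9 are part of the complex ISGF3, which binds the interferon-stimulated response element (ISRE) of target promoters. Interferon gamma acts through IFNGR1, IFNGR2, JAK1 and JAK2 on STAT dimers, which bind the gamma-activated site (GAS), and many guanylate-binding and immunity-related GTPases answer to it.

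Promoter sequences are shown first because promoter letters are not levels measured in these libraries. Members were named as interferon-stimulated genes, a class that ISGF3 reaches through the ISRE. Their share of matches is therefore a description and no independent support for the group. RefSeq promoter windows of build GRCm38.p6, with 250 bases before and 50 after each gene start, were found for 30 of the 39 members. The ISRE was searched as GAAANNGAAA on both strands, the reverse reading being TTTCNNTTTC, and the GAS as the palindrome TTCNNNGAA. Matches of the ISRE to each other and to the GAS were allowed to overlap. An ISRE match lay in 17 of 30 members (56.7%), against 3.99% of 27025 genes with a window. A GAS match lay in 7 of 30 (23.3%), against 9.55% of all genes, and both lay in 5 of 30 (16.7%), against 0.614%. Among the other interferon-stimulated genes of a wider list, 31 of 65 (47.7%) held an ISRE match. Of 9 receptor, kinase and STAT genes outside the members, 0 did, which are too few genes to set against a share of 3.99%. Stat2, a member, held an ISRE match. A match describes letters, not a bound site.

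The first sequences belong to effectors whose counts differed strongly between the muscle libraries, and capitals mark ISRE matches in either orientation. Isg15 encodes a ubiquitin-like modifier, and the stretch at chr4:156200856-156200915 on the minus strand holds 3 overlapping matches. Oas3 (chr5:120777700-120777759, minus strand) encodes a synthetase of the RNase L activator 2-5A. Rsad2 (chr12:26456538-26456597, minus strand) encodes viperin. Ifit1 (chr19:34640764-34640833, plus strand), Ifit3 (chr19:34583355-34583434, plus strand) and Ifit3b (chr19:34607751-34607830, plus strand) encode RNA-binding proteins with tetratricopeptide repeats.
Isg15: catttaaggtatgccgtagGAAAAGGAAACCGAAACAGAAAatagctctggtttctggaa
Oas3: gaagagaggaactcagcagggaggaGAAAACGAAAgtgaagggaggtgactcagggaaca
Rsad2: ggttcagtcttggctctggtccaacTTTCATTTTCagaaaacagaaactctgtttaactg
Ifit1: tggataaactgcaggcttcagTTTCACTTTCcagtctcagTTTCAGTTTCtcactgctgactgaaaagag
Ifit3: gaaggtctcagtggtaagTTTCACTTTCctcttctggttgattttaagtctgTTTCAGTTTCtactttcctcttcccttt
Ifit3b: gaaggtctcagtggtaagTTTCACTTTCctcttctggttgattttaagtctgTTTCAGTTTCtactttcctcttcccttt
The 80 bases of Ifit3 and Ifit3b are the same. Over the 250 bases before each gene start, shifted by 32 bases, 188 of 218 compared bases matched (86.2%).

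The second set belongs to GTPases and to Bst2, and capitals mark ISRE and GAS matches. Igtp (chr11:58199491-58199550, plus strand), Irgm2 (chr11:58214882-58214941, plus strand) and Tgtp1 (chr11:48992295-48992354, minus strand) encode immunity-related GTPases, and in each of these 3 the ISRE match began 11 bases after the start of the GAS match. Irgm1 (chr11:48871421-48871480, minus strand) held overlapping ISRE matches only. Gbp2 (chr3:142620579-142620638, plus strand) and Gbp3 (chr3:142559977-142560036, plus strand) encode guanylate-binding proteins and held ISRE matches only. Gbp7 (chr3:142530196-142530325, plus strand), another guanylate-binding gene, held 2 GAS matches that began 53 and 34 bases before its 1 ISRE match. Bst2 (chr8:71537568-71537627, minus strand) encodes tetherin, which holds budding virus at the membrane, and its GAS match overlapped the first of 2 ISRE matches.
Igtp: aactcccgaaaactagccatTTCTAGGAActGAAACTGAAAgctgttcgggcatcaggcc
Irgm2: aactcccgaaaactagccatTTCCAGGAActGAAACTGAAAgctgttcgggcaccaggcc
Tgtp1: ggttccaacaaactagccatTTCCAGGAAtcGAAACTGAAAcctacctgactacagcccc
Irgm1: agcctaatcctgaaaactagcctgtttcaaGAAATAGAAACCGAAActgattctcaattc
Gbp2: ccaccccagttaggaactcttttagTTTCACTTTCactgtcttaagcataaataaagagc
Gbp3: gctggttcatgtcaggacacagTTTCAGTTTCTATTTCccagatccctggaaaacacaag
Gbp7: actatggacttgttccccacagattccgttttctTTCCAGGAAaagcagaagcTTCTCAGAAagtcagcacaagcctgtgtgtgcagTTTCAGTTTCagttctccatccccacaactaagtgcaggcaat
Bst2: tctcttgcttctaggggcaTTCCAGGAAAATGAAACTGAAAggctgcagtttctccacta
The plot of match positions shows where they lie in all members that held one.

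**Figure D1:**
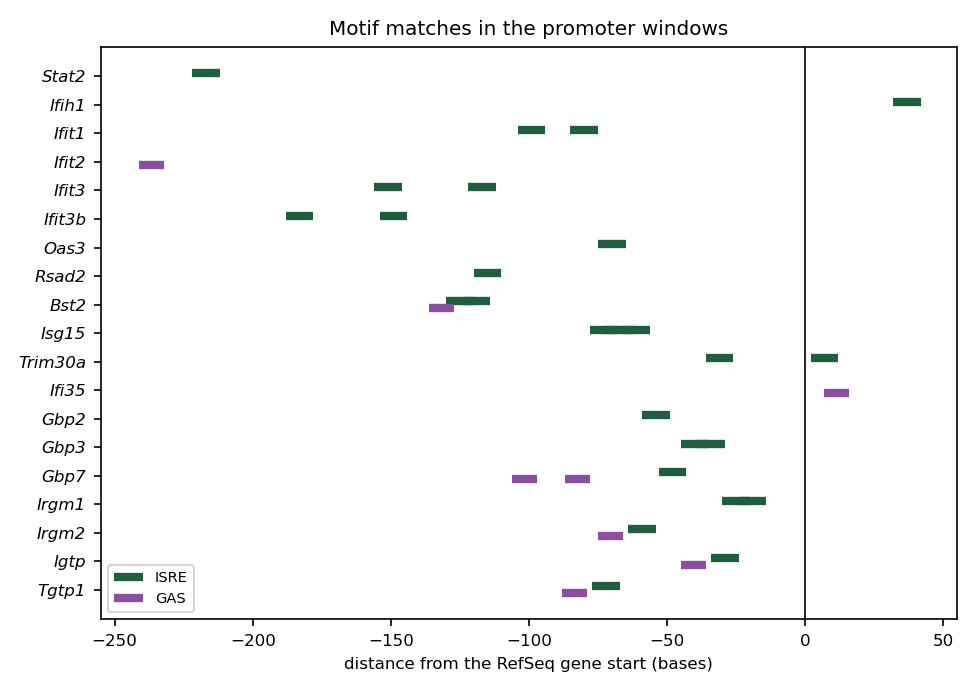
Positions of ISRE and GAS matches in the RefSeq promoter windows of the 19 members with a match, as bases from the gene start (x axis). In Igtp, Irgm2 and Tgtp1 the GAS match starts 11 bases before the start of the ISRE match.

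Summed over the 37 members, the level was 1521 and 1058 CPM in the fat pad libraries, 922 and 330 CPM in the muscle libraries, and 536 and 465 CPM in the tendon libraries. After TMM scaling (trimmed mean of M values, which sets library sizes from the bulk of genes), fat pad library 1 and muscle library 1 were each the highest of the 6 libraries for 17 members. Muscle library 1 lay above both tendon libraries for all 37 members, while muscle library 2 lay above both for 15 and below both for 11. The lowest value lay in a tendon library for 25 members and in muscle library 2 for 9.

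**Figure D2:**
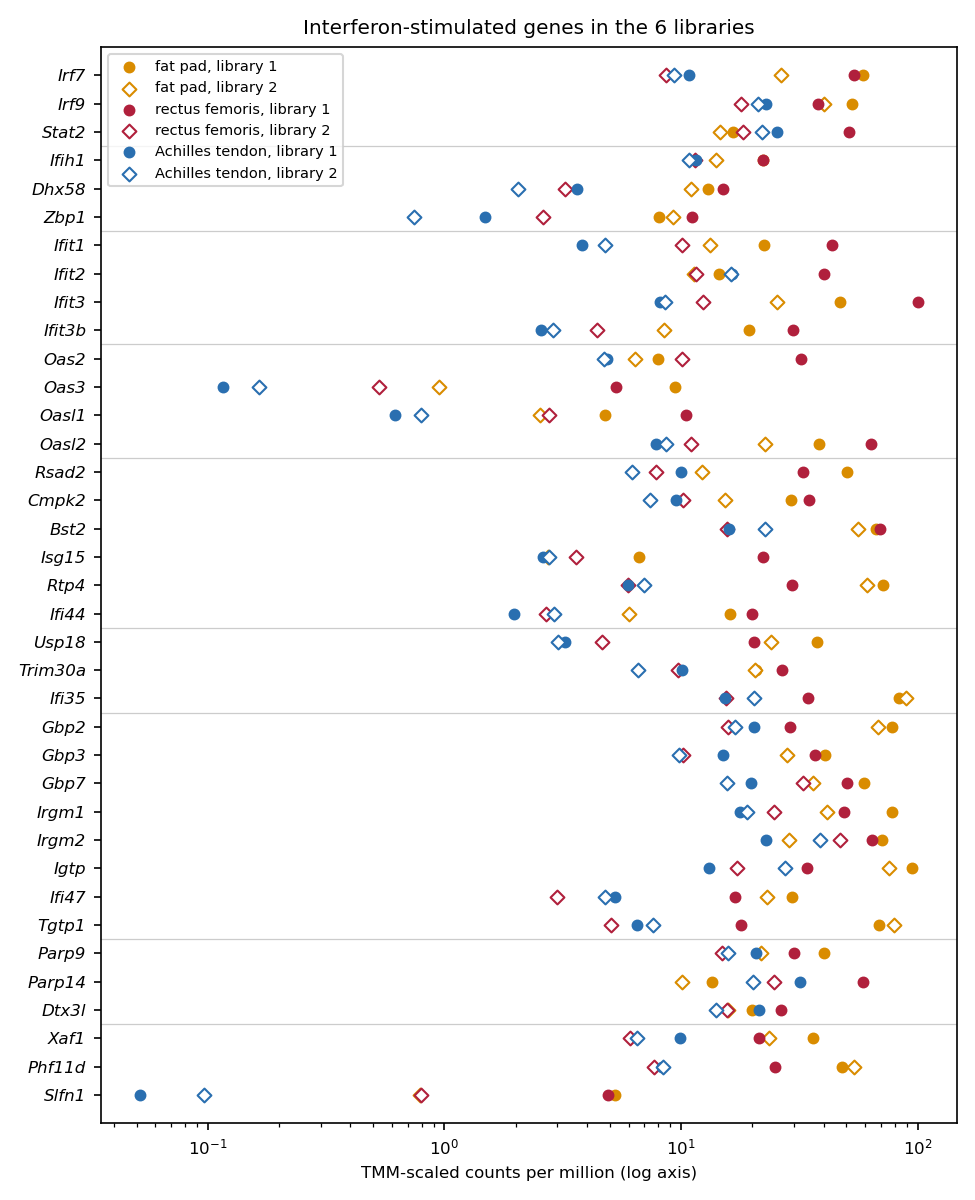
TMM-scaled CPM (log axis) of the 37 members in each of the 6 libraries, ordered by role. Filled circles are library 1 and open diamonds library 2 of a tissue. Red circles, muscle library 1, lie to the right of red diamonds in every row.

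The members stood furthest apart between libraries of the same tissue in the rectus femoris count table. All 37 members had fewer counts in muscle library 2 than in library 1, with 95% counting intervals of the ratio below 1 for each. Of the 37, 30 were at least 2-fold lower and 0 at least 2-fold higher. Of the 13767 genes that reached 20 counts in either muscle library, 2.48% were at least 2-fold lower and 3.03% higher. On the log2 scale the ratio of library 2 to library 1 had a median of -1.82 over the members and 0.02 over all genes. These intervals cover counting error only, since there was 1 library on each side.

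By family, the IFIT genes had the lowest median, -2.42 on the log2 scale. Next came the OAS family and the remaining antiviral effectors, each with -2.22. Guanylate-binding and immunity-related GTPases had a median of -0.99, and 3 of 8 were at least 2-fold lower. The ADP-ribosylation and ubiquitin genes Parp9, Parp14 and Dtx3l ranged from -1.24 to -0.76.

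Among the signalling factors, Irf7, the transcription factor that amplifies interferon production, gave 39.2 CPM in muscle library 1 and 6.73 CPM in library 2. Stat2 gave 37.3 and 14.1 CPM, and Irf9, its partner in ISGF3, gave 27.5 and 13.9 CPM. Irf7 was 6.19-fold lower in library 2, a log2 ratio of -2.63, and the ISGF3 genes had smaller ratios, -1.49 for Stat2 and -1.08 for Irf9.

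Of the sensors of foreign nucleic acid, Dhx58 (LGP2) gave 10.9 CPM in muscle library 1 and 2.51 CPM in library 2. Zbp1, which recognises Z-form nucleic acid, gave 8.04 and 2.02 CPM. Ifih1 (MDA5) gave 16.1 and 8.85 CPM and was the member of this trio with the smallest ratio, at -0.95.

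Ifit3 showed the strongest shift of its family, with 72.9 CPM in muscle library 1 and 9.62 CPM in library 2, which is 8.07-fold (log2 ratio -3.01, counting interval -3.15 to -2.89). Ifit1 gave 31.4 and 7.81 CPM. Ifit2 gave 29.1 and 8.97 CPM. Ifit3b gave 21.6 and 3.42 CPM, and since 51.2% of the 50-base words of Ifit3 transcripts also occur in Ifit3b, reads of this pair may have been divided between them.

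Oas3 had 216 counts in muscle library 1 and 24 in library 2, the lowest ratio of any member (log2 -3.22, counting interval -4.00 to -2.71). Oas2 gave 23.3 and 7.81 CPM. Oasl1, which curbs translation of Irf7 mRNA, gave 7.63 and 2.15 CPM, and Oasl2 gave 46.3 and 8.51 CPM. All 4 genes of the OAS family were at least 2-fold lower in library 2.

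Isg15 gave 16.2 CPM in muscle library 1 and 2.80 CPM in library 2. Usp18, the protease that removes ISG15 and restrains IFNAR2 signalling, gave 14.8 and 3.59 CPM. Ifi44 gave 14.5 and 2.08 CPM. The modifier and the enzyme that removes it were low in the same library.

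Bst2 gave 50.1 and 12.1 CPM in the muscle libraries. Rtp4, a binding partner of viral RNA, gave 21.4 and 4.61 CPM. Rsad2 gave 23.7 and 6.08 CPM. Its genomic neighbour Cmpk2, a mitochondrial nucleotide kinase, gave 25.3 and 7.87 CPM, and log2 ratios of that pair were -2.05 and -1.78.

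Ifi47, an immunity-related GTPase, gave 12.2 and 2.32 CPM, and Xaf1, a gene linked to cell death, gave 15.6 and 4.73 CPM. The smallest muscle ratios were those of Irgm2, with 46.7 and 36.3 CPM (log2 -0.46), and Gbp7, with 36.3 and 25.4 CPM (log2 -0.61). Irgm2 and Igtp carry the same GAS and ISRE arrangement as Tgtp1, and Tgtp1 had a log2 ratio of -1.82 and Igtp of -0.98. Tgtp1 shares 79.4% of its 50-base words with Tgtp2, so its counts are uncertain. Members with an ISRE match had a median muscle ratio of -1.82 and those with a window but no match -1.81.

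The TPM table did not show this pattern. In the authors' TPM, Irf7 was 2.43 in muscle library 1 and 3.12 in library 2, and Ifit3 was 24.7 and 34.3. On the log2(TPM + 1) scale the median over 36 members with a TPM of at least 1 was -0.01, and 0 were at least 2-fold apart. In the authors' deposited table of muscle fold changes, the median of the members for library 1 over library 2 was -0.20 on the log2 scale. The reason for the disagreement was not tested.

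**Figure D3:**
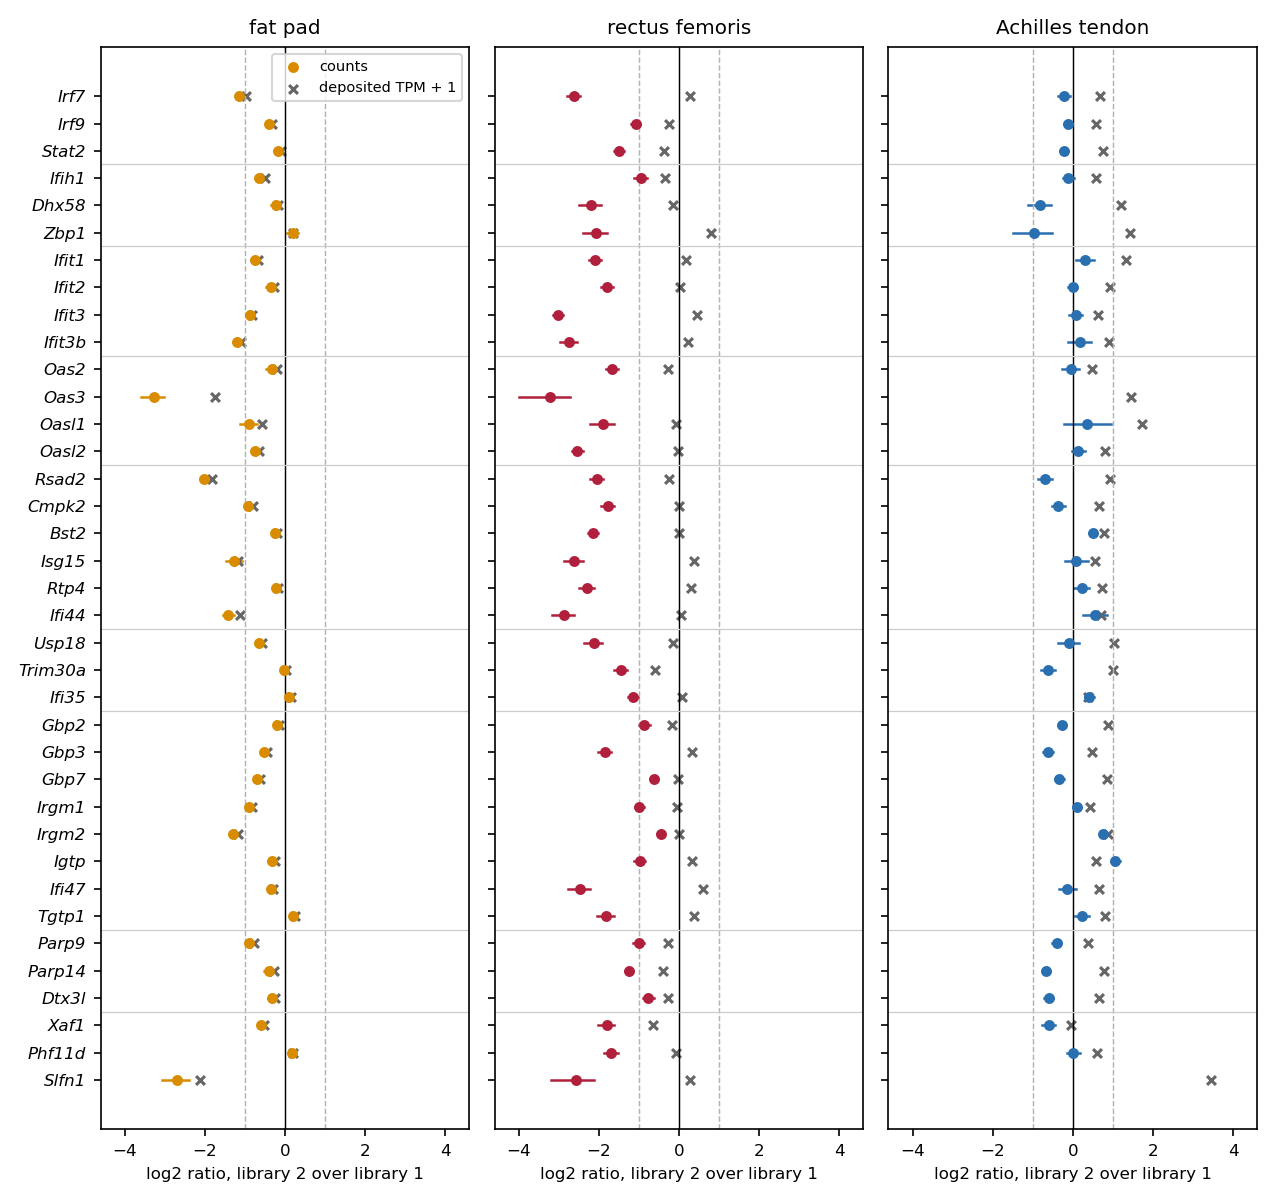
Log2 ratio of library 2 over library 1 for each member in fat pad, rectus femoris and Achilles tendon. Dots are TMM-scaled counts with 95% counting intervals, and crosses are deposited TPM + 1 where a library reached 1 TPM. In rectus femoris all 37 dots lie left of 0 while the crosses scatter around it.

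Marker lists of other cells were read in the counts of the same muscle libraries. Leukocyte markers (6 of 6 that reached 20 counts) summed to 44.0 and 36.7 CPM, with a median log2 ratio of -0.25. Macrophage markers (7 of 8) summed to 324 and 292 CPM, with a median of -0.28. Adipocyte markers had a median of 1.44 and summed to 772 and 1184 CPM. Tenocyte markers were lower in library 2 for 6 of 6, with a median of -0.53 and sums of 1512 and 1095 CPM. Endothelial markers had a median of 0.27, with 4 higher and 2 lower, and summed to 262 and 359 CPM. The part of these cells in the result was not tested. In bulk tissue, fewer cells of a type and less RNA per cell cannot be told apart.

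The rest of the pathway showed which steps accompanied the members in the muscle counts. TPM ratios of these lists are not given, and the TPM did not show the pattern for the members. Other interferon-stimulated genes were at least 2-fold lower in library 2 for 33 of 72 and higher for 0, where 2.48% and 3.03% of all genes were. Their median log2 ratio was -0.86. Further GTPases were lower for 6 of 13, and genes of MHC class I presentation for 3 of 15. Of the 10 receptor, kinase and STAT genes with enough counts, 0 were 2-fold apart, and their median was -0.05. The log2 ratios of these 10 ran from -0.87 to 0.37, with counting intervals below 0 for 4 and above 0 for 3. Among them, Ifnar1 (17.6 and 19.4 CPM), Jak1 (10200 and 11859 counts) and Tyk2 (17.1 and 16.7 CPM) were nearly level. Irf1, a factor downstream of interferon gamma, gave 11.5 and 12.8 CPM.

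**Figure D4:**
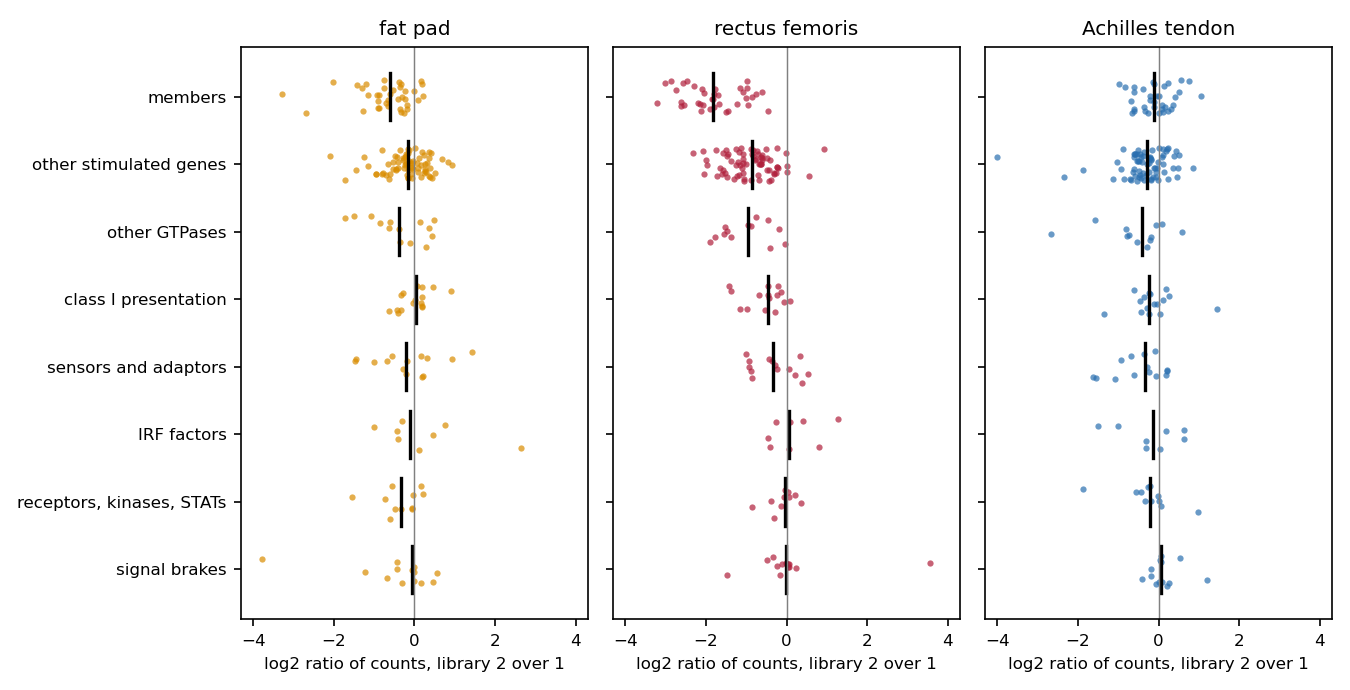
Log2 ratio of counts, library 2 over library 1, by pathway list and tissue. Each dot is a gene that reached 20 counts in either library of the tissue, and black bars are medians. In rectus femoris the bar of the members lies at -1.82 and that of receptors, kinases and STATs at -0.05.

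Interferon transcripts themselves were almost undetected. The 12 ligand genes with a row summed to at most 0.433 CPM, in fat pad library 2. Ifnb1 had at most 1 count in any library. Fat pad library 1 held 4 Ifng counts and library 2 held 22, and Ifng had no row in the muscle and tendon tables. A library of this depth places 3 counts, the limit that a count of 0 allows, at 0.0282 to 0.0534 CPM, for counting error only.

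In the fat pad, 33 of 37 members had lower scaled counts in library 2, and 8 were at least 2-fold lower, against 11.2% of 16715 genes. The median log2 ratio was -0.61 for the members and -0.01 for all genes. Here the TPM followed the counts, with a median of -0.50 on the log2(TPM + 1) scale and 7 members at least 2-fold lower.

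Oas3 had 10.2 CPM in fat pad library 1 and 1.01 CPM in library 2, which is 9.70-fold. Slfn1, a Schlafen family gene, gave 5.69 and 0.837 CPM. Rsad2 gave 54.6 and 13.0 CPM. These were the 3 members furthest apart in this tissue, followed by Ifi44 (17.5 and 6.36 CPM), Irgm2 (76.5 and 30.1 CPM) and Isg15 (7.19 and 2.90 CPM).

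Irf7 gave 63.6 and 28.0 CPM and Ifit3b 21.1 and 8.97 CPM, which completed the 8. By contrast, Tgtp1 (74.9 and 84.2 CPM), Ifi35 (91.0 and 94.2 CPM), Phf11d (52.2 and 57.1 CPM) and Zbp1 (8.78 and 9.76 CPM) were slightly higher in library 2. Neutrophil markers moved in the direction of the 8, with a summed level of 1963 CPM in library 1 and 257 CPM in library 2 (7 of 7 markers at least 2-fold lower). Erythroid markers also did (52968 and 16284 CPM, 6 of 6). B lymphocyte markers had a median log2 ratio of -2.22, with 4 of 5 at least 2-fold lower and 1 higher, and summed to 97.1 and 83.7 CPM. T and NK lymphocyte markers had a median of -0.72 and summed to 26.2 and 17.3 CPM. Dendritic cell markers had a median of 0.93. Macrophage markers were higher in library 2 (6520 and 9834 CPM). Leukocyte markers had a median of -0.25 and summed to 498 and 523 CPM. Endothelial markers were lower in library 2 for 6 of 6, with a median of -0.46 (342 and 217 CPM). Synovial lining markers were lower for 5 of 6, with a median of -0.43, but summed to 18244 and 19971 CPM. The part of these cells in the result was not tested.

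In the Achilles tendon the members were nearly level in the counts. Of 35 members that reached 20 counts, 0 were at least 2-fold lower, where 9.55% of 14832 genes were, and 1 was higher, where 4.86% of genes were. That member was Igtp, with 17.3 and 32.2 CPM. The median log2 ratio was -0.10. Irgm2, the neighbour of Igtp in the genome, gave 30.0 and 45.4 CPM and had the next highest ratio, 0.76. At the other end Zbp1 had 115 and 54 counts. Scaling to total counts alone left 1 member 2-fold apart, in the opposite direction. Adipocyte markers had a median ratio of -3.33 and fast muscle markers of 1.32 between the same libraries. In the TPM, 8 of 37 members were at least 2-fold higher in library 2, and the median was 0.75.

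Between tissues, the members were highest in fat pad relative to tendon. Fold changes came from an edgeR quasi-likelihood fit with Benjamini-Hochberg adjustment over all 15856 genes, and "passed" means an adjusted p below 0.05. Of 37 members, 20 passed as higher in fat pad than in tendon and 0 as lower (edgeR; 1 lower at an unadjusted p below 0.05 and 1 by DESeq2), while 27.2% of all genes passed as higher and 31.4% as lower. The median log2 fold change was 1.95 for the members and -0.01 for all genes. The libraries did not overlap for 31 members that were higher in fat pad and 3 that were lower, against 40.4% and 41.1% of genes. Leukocyte markers passed as higher in fat pad for 6 of 6 and macrophage markers for 7 of 8, with medians of 3.06 and 3.58. Leukocyte markers summed to 498 and 523 CPM in fat pad and to 99.6 and 66.0 CPM in tendon, and macrophage markers to 6520 and 9834 against 558 and 472 CPM. Their part was not tested.

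Slfn1 had only 4 and 7 counts in the tendon libraries and Oas3 9 and 12, and these members had the largest fat pad over tendon differences, 5.32 ± 1.35 (SE, n = 2 libraries per tissue) and 5.19 ± 1.49 on the log2 scale. Tgtp1, whose counts are uncertain because of Tgtp2, differed by 3.39 ± 0.55, Rtp4 by 3.36 ± 0.68 and Usp18 by 3.30 ± 0.67. Rtp4 stood at 77.6 and 64.4 CPM in fat pad and at 7.81 and 8.14 CPM in tendon. Usp18 stood at 40.9 and 25.3 CPM in fat pad and at 4.25 and 3.53 CPM in tendon.

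Parp14, a mono-ADP-ribosyltransferase, went the other way, with 14.6 and 10.7 CPM in fat pad against 41.9 and 23.6 CPM in tendon. After TMM scaling, Stat2 (16.6 and 14.6 CPM in fat pad, 25.4 and 21.9 CPM in tendon) and Ifit2 (14.5 and 11.4 against 16.3 and 16.3 CPM) were the other members lower in both fat pad libraries. In edgeR with all libraries none of these 3 passed. Parp14 passed as lower by DESeq2, with a replicate block, with scaling to total counts, in limma on TPM, and with some single libraries left out. Members were chosen by their levels in these libraries, so these calls are a description and no test of Parp14. Without fat pad library 1, 10 members passed as higher, and without tendon library 2, 11 passed as higher and 1 as lower. With limma on log2(TPM + 1) the median was 0.13, and 6 members passed as higher and 5 as lower. Of the 20, Irf9, Trim30a, Oasl1 and Slfn1 changed sign there, to values between -0.22 and -0.03, and none of them passed as lower.

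Fat pad against muscle depended on which muscle library was used. With all libraries, 6 members passed as higher in fat pad, where 29.8% of all genes did, and 2 as lower, where 29.6% did. Those higher were Tgtp1 (2.69 ± 0.54), Rtp4 (1.90 ± 0.64), Ifi35 (1.79 ± 0.37), Igtp (1.74 ± 0.43), Gbp2 (1.70 ± 0.30) and Phf11d (1.64 ± 0.49), as log2 fold changes with SE. Those lower were Parp14, at -1.82 ± 0.44, and Oas2, at -1.55 ± 0.51. The libraries did not overlap for 10 members that were higher in fat pad and 3 that were lower, against 43.7% and 39.7% of genes. The median log2 fold change was 0.34, and that of all genes 0.14.

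Gbp2 shows what the 6 share, with 77.8 and 67.9 TMM-scaled CPM in fat pad against 28.9 and 15.9 in muscle, so that even muscle library 1 lay well below. Ifit3 shows the other case, with 47.1 and 25.5 TMM-scaled CPM in fat pad between the muscle values of 100.4 and 12.4. Without muscle library 1 the median rose to 1.66, and 16 members passed, all higher in fat pad. Without muscle library 2 the median was -0.32, and 5 passed as higher and 7 as lower. Without fat pad library 1 it was -0.21, and 3 passed as higher and 1 as lower. Without fat pad library 2, 4 passed, all higher. With scaling to total counts alone, 11 passed as higher and 1 as lower.

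In tendon against muscle, all 37 members had negative log2 fold changes with TMM scaling, and 12 of them turned positive with scaling to total counts. The median was -1.13, where all genes had 0.10. As lower in tendon, 6 members passed, where 12.7% of all genes did, and 0 passed as higher (edgeR; 0 also at an unadjusted p below 0.05 and by DESeq2), where 13.3% did. By DESeq2, 19 passed as lower. The libraries did not overlap for 15 members that were lower in tendon and 0 that were higher, against 33.7% and 36.4% of genes. The 6 were Slfn1, Oasl1, Ifit1, Zbp1, Oas2 and Gbp7. Oas2 stood at 6.42 and 5.53 CPM in tendon against 23.3 and 7.81 CPM in muscle. Without muscle library 1 the median was -0.02 and 0 passed in edgeR (5 lower at an unadjusted p below 0.05). In edgeR 0 passed too without muscle library 2 (32 unadjusted) or without tendon library 1 (10 unadjusted). Without tendon library 2, 1 passed. With limma on log2(TPM + 1) the direction was the opposite: the median was 0.78, all 37 members changed sign, and 10 passed as higher in tendon and 0 as lower.

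**Figure D5:**
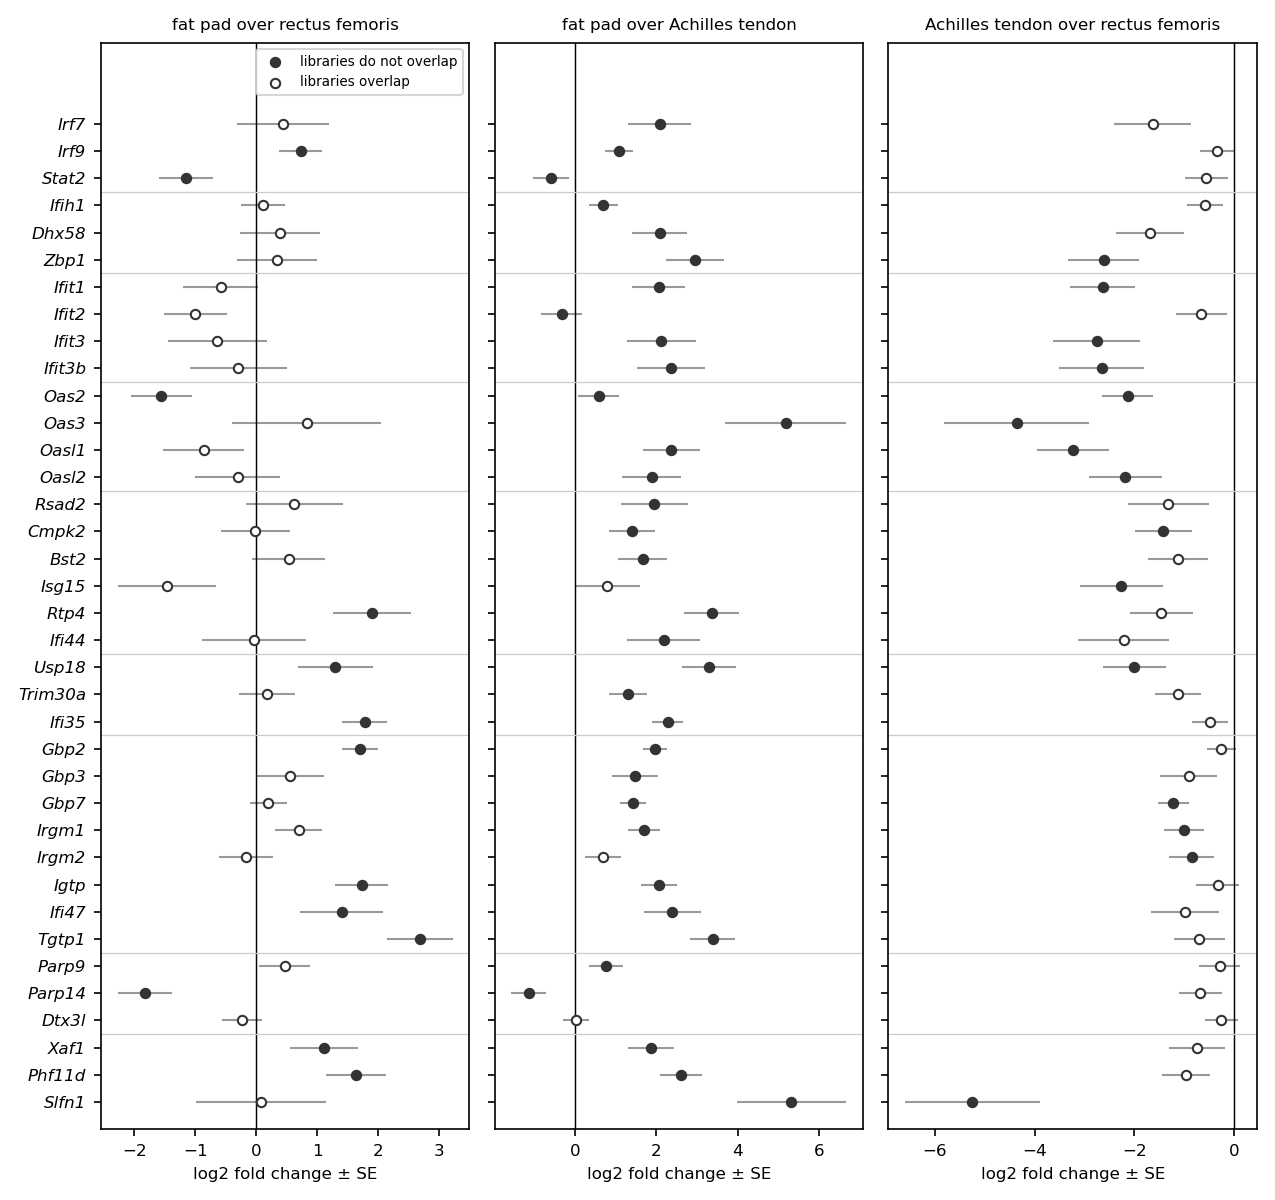
Log2 fold changes of the members between tissues with standard errors from the edgeR fit (2 libraries per tissue). Filled points mark members whose libraries do not overlap between the tissues. Most points lie right of 0 for fat pad over Achilles tendon (34 of 37) and all lie left of 0 for Achilles tendon over rectus femoris. With scaling to total counts, 1 member changes sign in the first of these comparisons and 12 in the other.

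The genes that carry and use the signal were listed apart from the members, and 150 of these 183 genes were tested. The 3 comparisons share libraries. Against muscle, 63 passed as higher in fat pad and 25 as lower, where 29.8% and 29.6% of all genes did. Against tendon 76 passed as higher and 22 as lower, where 27.2% and 31.4% of all genes did. In tendon against muscle 10 passed as higher and 13 as lower, where 13.3% and 12.7% of all genes did. Scaling to total counts changed that last split to 44 and 5, and the fat pad against muscle split to 85 and 15. With limma on log2(TPM + 1), 38 passed as higher in fat pad than in tendon and 54 as lower, and 63 as higher in tendon than in muscle and 1 as lower. Without muscle library 1 or without muscle library 2, only 1 gene passed in tendon against muscle, and without tendon library 1, 7 did.

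Among receptors, Ifnar2 stood at 105 and 119 CPM in fat pad, 7.03 and 9.68 CPM in muscle, and 39.1 and 25.7 CPM in tendon. It was higher in fat pad by 3.24 ± 0.24 over muscle (edgeR adjusted p = 7.79e-05) and by 2.02 ± 0.23 over tendon (edgeR adjusted p = 0.000403) on the log2 scale. Ifngr1, the ligand-binding chain for interferon gamma, was higher by 2.92 ± 0.23 (edgeR adjusted p = 8.46e-05) and 2.22 ± 0.22 (edgeR adjusted p = 0.000233). The kinases Jak1, Jak2 and Tyk2 were lower in fat pad, as was the signalling chain gene Ifngr2 against muscle. Jak2 stood at 16.5 and 10.6 CPM in fat pad, 54.9 and 56.2 CPM in muscle and 57.2 and 51.0 CPM in tendon, and differed by -2.56 ± 0.23 (edgeR adjusted p = 0.000148) and -1.79 ± 0.23 (edgeR adjusted p = 0.000631). Jak1 differed by -1.52 ± 0.19 (edgeR adjusted p = 0.000508) and -0.79 ± 0.18 (edgeR adjusted p = 0.00907).

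Of 8 other interferon regulatory factors tested, 6 passed as higher in fat pad than in muscle and 5 as higher than in tendon. In either comparison 0 passed as lower (edgeR; 0 lower also unadjusted and by DESeq2). Of all genes, 29.8% passed as higher than in muscle and 27.2% as higher than in tendon, and 29.6% and 31.4% as lower. Irf1 was higher by 2.31 ± 0.20 (edgeR adjusted p = 0.000131) and 1.72 ± 0.20 (edgeR adjusted p = 0.000429), and Irf8, a factor of myeloid cells, by 1.62 ± 0.26 (edgeR adjusted p = 0.00180) and 2.37 ± 0.27 (edgeR adjusted p = 0.000395).

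Genes of MHC class I presentation passed as higher in fat pad for 12 of 16 against muscle and 13 of 16 against tendon. Of all genes, 29.8% and 27.2% did. As lower, 0 of the 16 passed (edgeR; 0 lower also unadjusted and by DESeq2), where 29.6% and 31.4% of all genes did. B2m, the light chain of class I molecules, differed by 5.19 ± 0.37 (edgeR adjusted p = 6.74e-05) and 4.78 ± 0.36 (edgeR adjusted p = 0.000103). Psmb8, an immunoproteasome subunit, differed by 3.96 ± 0.37 and 3.99 ± 0.37 (edgeR adjusted p = 0.000151 and 0.000179). In the same comparisons leukocyte and macrophage markers were higher in fat pad, as given above, and their part was not tested.

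Of 74 other interferon-stimulated genes tested, 30 passed as higher in fat pad than in muscle and 11 as lower. Of all genes, 29.8% and 29.6% did. Against tendon 41 passed as higher and 9 as lower, where 27.2% and 31.4% of all genes did. Ifi27l2a stood at 2889 and 1736 CPM in fat pad and at most 40.4 CPM elsewhere. Trim21 and Slfn5 were lower in fat pad than in muscle, by -2.70 ± 0.43 (edgeR adjusted p = 0.00166) and -2.20 ± 0.19 (edgeR adjusted p = 0.000128). Among signal brakes, the phosphatase gene Ptpn6, expressed in blood cells, was higher in fat pad by 3.57 ± 0.25 over muscle (edgeR adjusted p = 6.69e-05), and its relative Ptpn11 was lower, at -2.54 ± 0.18 (edgeR adjusted p = 6.92e-05).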

How the data were processed

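Bulk RNA-seq of 6 libraries (3 tissues, 2 libraries each) was analysed from gene tables. The deposited counts are whole numbers per Ensembl gene, made by the authors. Bowtie2, RSEM 1.3.1, DESeq2 1.4.5 and build GRCm39 are named, without a role, in the submitters' processing notes. Which counter and strand setting were used is not given in the sources used here. The authors' TPM tables hold length-scaled TPM with their own log2 fold changes, p-values and −log10 p-values between the libraries of a tissue, per the file headers, and of these only TPM and log2 fold changes were used. Symbols came from the TPM tables by Ensembl identifier, and 1740 that these lacked came from a separate list of gene names.

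Tissues were compared with edgeR 4.0.16 (R 4.3.3) on genes kept by filterByExpr, in 1 fit of all 6 libraries with TMM scaling and a threshold of 0.05. Scaling to total counts moved the median of all genes by 0.51 (fat pad over muscle), -0.21 (fat pad over tendon) and 0.73 (tendon over muscle). Within a tissue, log2 ratios used TMM library sizes, a prior count of 2, at least 20 counts in the higher library and exact binomial 95% intervals. Alternatives used DESeq2 1.42.0, limma 3.58.1 on log2(TPM + 1), other scalings and filters, and left out each library. Genes that could be named were all members, all receptors, kinases, STATs and regulatory factors, and of the other lists those with the largest and smallest fold changes among genes that passed with at least 1 CPM. Results for 1 gene of these lists are not reported here. Members and lists were chosen with earlier results of these data known. Fits were tested on simulated counts.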

Additional observations from a re-analysis of the deposited data

How the results depend on the processing

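With 2 libraries per tissue, leaving one out left a single library whose spread was assumed to be like the rest. Without each library in turn, members that passed ranged from 4 to 16 for fat pad over muscle, 10 to 29 for fat pad over tendon and 0 to 5 for tendon over muscle. The other pathway genes ranged from 74 to 93, 80 to 99 and 1 to 19. The members' median log2 fold change ranged from -0.32 to 1.66, from 1.52 to 2.19 and from -1.74 to -0.02.

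The labels do not say whether equal library numbers in different tissues mark a shared condition or animal. Correlations of the library ratios over all genes were -0.03, 0.00 and -0.17 between tissues. They cannot settle this, since a shared condition could act differently in each tissue. With a replicate block 14 other pathway genes passed in tendon over muscle, against 23 without it. In that comparison, scaling to total counts gave 49 pathway genes and 3 members, and DESeq2 gave 41 and 19.

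With limma on log2(TPM + 1), log2(TPM + 0.1) and unfiltered log2(TPM + 1), in that order, members that passed were 21, 21 and 17 for fat pad over muscle and 11, 11 and 11 for fat pad over tendon, where their median was 0.13 in each. For tendon over muscle 10 members passed with log2(TPM + 1), all higher in tendon, against 6 in the counts, all lower. Pathway genes were 64, 62 and 60, of which all but 1 were higher in each, and the members' median was 0.78, 0.84 and 0.78. As TPM + 1 ratios, 0 members were at least 2-fold apart between muscle libraries and 8 between tendon libraries. The members' median for fat pad over muscle turned sign without muscle library 2 or fat pad library 1. Among single genes that had passed in edgeR, the sign turned under TPM alone, while genes that had not passed also turned under other settings. The cause was not tested. With log2(TPM + 1) and log2(TPM + 0.1), for fat pad over tendon, Irf9 was at -0.029 and -0.030, Trim30a at -0.18 and -0.19, Oasl1 at -0.22 and -0.19, and Slfn1 at -0.16 and -0.016. For tendon over muscle, Zbp1 was at 1.29 and 1.78, Oas2 at 0.090 and 0.10, Ifit1 at 0.94 and 0.99, Gbp7 at 0.24 and 0.25, Oasl1 at 0.61 and 0.77, Slfn1 at 0.99 and 0.99, and Jak2 at 0.12 and 0.13.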

Other observations

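Among the genes of the pathway lists, the highest ratio in the muscle counts was that of Cish, a cytokine-induced inhibitor of JAK-STAT signalling. It had 91 counts in muscle library 1 and 1205 in library 2, a log2 ratio of 3.55, whereas in fat pad it had 3756 counts in library 1 and 337 in library 2, a log2 ratio of -3.78. Irf4, an interferon regulatory factor of lymphocytes and also of adipocytes, gave 158 and 431 counts in the muscle libraries, 1581 and 3324 in the fat pad libraries, and 879 and 291 in the tendon libraries. Both genes were singled out after their values were seen, and each ratio rests on 1 library per side. Their values are counts, and their TPM is not given, although TPM and counts disagree in muscle and tendon.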
